A study of Mus musculus with 9 samples.

Results

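The genes described here encode the acetylcholine receptor of skeletal muscle and the MuSK pathway that gathers it under the nerve terminal. They are the receptor subunit genes Chrna1, Chrnb1, Chrnd, Chrng and Chrne, and Musk, Dok7, Rapsn, Lrp4 and Ache, 10 genes of the 19938 that have a transcript cluster of a single symbol on the array. They were chosen by name, with earlier results of these data known, and each has 1 such cluster, the array's unit for a gene. Beating samples were colonies that contracted spontaneously on day 28 of primary culture of stromal vascular fraction (SVF), the non-adipocyte cells of fat, here from subcutaneous adipose tissue of C57BL6/J mice aged 10 weeks (n = 4). The round sample was 1 pool of 6 round cells taken on day 14 of such culture (no replicate), and non-beating samples held the remaining cells of the dishes on day 28 (n = 4). The labels name no transgene for any group and no treatment other than a minimal growth medium. The colonies were picked by hand, from a few dishes at a time, so a beating sample can hold neighbouring cells, and a non-beating sample holds every other cell type of the dish.

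The receptor of muscle is a ligand-gated cation channel that opens when acetylcholine binds, and its opening triggers contraction. It is built from a pair of alpha subunits with beta and delta and with gamma in fetal or denervated muscle, where epsilon replaces gamma as synapses mature. Agrin from the nerve binds Lrp4, which activates the receptor tyrosine kinase MuSK. Dok7 holds MuSK active from inside the cell, rapsyn clusters the receptors, and acetylcholinesterase ends the signal. In cultured muscle cells the receptor genes are known to switch on with fusion, without a nerve, under the myogenic factors of the MyoD family, which bind E-boxes in their promoters.

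The arrays were of the Affymetrix Mouse Gene 1.0 ST type, and the deposited log2 signals were used unchanged. The medians of the 8 beating and non-beating arrays lay between 3.08 and 3.17, and a value near or below them cannot be told from background. Since background is part of every signal, a fold change here does not give the ratio of transcripts. Beating was compared with non-beating by limma's two-sided test, with p adjusted by Benjamini-Hochberg across the 33323 clusters and a threshold of 0.05. It called 940 clusters higher and 1114 lower in beating samples, and 837 and 1617 after each array was centred on its median. Whether separate SVF lots lie behind the 4 replicates is not stated, and a p measures only the spread between these arrays. Of 10 skeletal muscle marker genes 9 were higher in beating samples. The mean of that list lay between 8.31 and 8.96 in beating samples and at 8.04 in the round pool. In non-beating samples it lay between 3.82 and 4.47. Of 8 heart-restricted markers only Myh6 was higher (log2 fold change 0.41). Of the 8, 5 lay below the lowest array median on all 8 arrays, and Myh6 was 1 of them. Its beating values, 2.68 to 2.90, lay above its non-beating values, 2.29 to 2.46. How far its level stood above background was not measured. By qRT-PCR the study found heart genes, Myh6 among them, expressed in beating cells. By staining, nearly all beating cells held cardiac troponin T, and most of these lacked MyoD1. Its authors speculate that picked clusters also held round cells and nearby skeletal myocytes that did not beat. The motor neuron marker list averaged 2.68 to 2.87 in beating samples, 3.22 in the round pool and 2.71 to 2.84 in non-beating samples, and 6 of its 8 genes, Chat among them, were below the lowest array median on all 8 arrays. Schwann cell markers averaged 4.13 to 4.36 in beating samples, 4.23 in the round pool and 4.11 to 4.40 in non-beating samples. Of other cells of fat, 4 of 8 fibroblast markers, 4 of 8 adipocyte markers and 1 of 8 macrophage markers were lower in beating samples, none was higher, and the adjusted two-sample test called 2, 1 and 0 of them lower. Fibroblast markers averaged 7.26 to 7.72 in beating samples, 4.65 in the round pool and 8.04 to 8.71 in non-beating samples, though Col1a1 and Col1a2, collagen genes of that list, did not pass (log2 fold changes of 0.46 and 0.044). Adipocyte markers averaged 4.13 to 4.57 in beating samples, 3.81 in the round pool and 5.15 to 5.45 in non-beating samples. The macrophage list averaged 3.43 to 5.60 in beating samples, 3.65 in the round pool and 5.66 to 7.19 in non-beating samples. Endothelial markers overlapped, at 3.71 to 5.51 in beating samples, 3.53 in the round pool and 4.56 to 5.50 in non-beating samples, and none of the 8 passed either test.

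In the beating samples 6 of the 10 genes were higher, none was lower and 4 missed the threshold, where 2.82% of all clusters were called higher, 3.34% lower and 6.16% in either direction. The study's methods set an unadjusted p under 0.0001 in a two-sample test after a prefilter on change. At that threshold 5 of the 6 were called, against 2.44% of the clusters past the prefilter, which Dok7 did not pass. The prefilter kept 7976 clusters here, fewer than the study's count of prefiltered genes, so the study's filtered set was not reproduced. The 6 were Chrna1, Musk, Chrng, Chrnd, Chrnb1 and Lrp4. The 4 others, Chrne, Dok7, Rapsn and Ache, had positive differences that did not pass. In 9 of the 10 genes every beating value lay above every non-beating value, which 5.98% of all clusters show, and Rapsn was the exception. The median log2 fold change was 1.12 over the 10 genes and 0.0073 over all clusters. Because the genes were chosen with earlier results of these data known, these comparisons with all clusters do not test the set. In bulk RNA, fewer cells of a type and less RNA per cell cannot be told apart, and the skeletal muscle marker list moved with these genes. The part of that list, and of the fibroblast, adipocyte and macrophage lists, in the result was not tested.

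**Figure D1:**
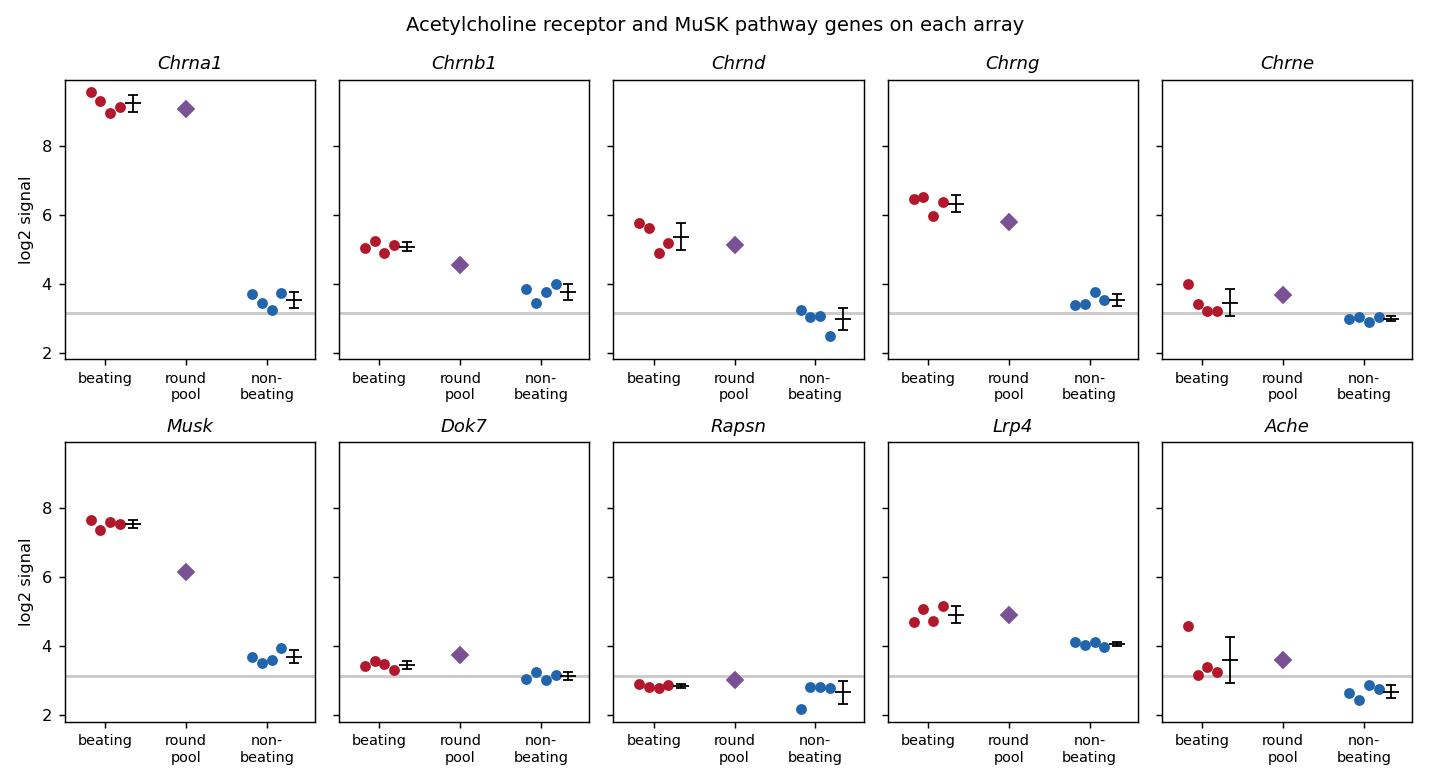
Log2 signal (vertical axis) of the 10 genes in the beating samples (red, n = 4), the round pool (purple, 1 pool) and the non-beating samples (blue, n = 4), with black marks for the mean and SD of 4 and a grey band for the range of the array medians, 3.08 to 3.17. Chrna1, Musk, Chrng and Chrnd stand well apart between the groups, and Rapsn lies below the band on all 8 beating and non-beating arrays.

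The promoters of the receptor genes are shown because their E-boxes, CANNTG, are the known binding sites of the MyoD family, and the form CAGCTG is one that it prefers. RefSeq promoter windows of the GRCm38.p6 build covered 7 of the 10 genes; Chrnd, Rapsn and Lrp4 had no entry. The 250 bases before the annotated start follow for Chrna1, Chrng and Chrne, and a stretch of 30 bases for Musk, since the annotated span of Musk begins before most of its window. Each reads 5′ to 3′ on the strand of the gene. Capitals mark the E-boxes and, in Chrne, the N-box CCGGAA, an Ets factor site known from genes expressed at synapses.
Chrna1 chr2:73580339-73580588, minus strand: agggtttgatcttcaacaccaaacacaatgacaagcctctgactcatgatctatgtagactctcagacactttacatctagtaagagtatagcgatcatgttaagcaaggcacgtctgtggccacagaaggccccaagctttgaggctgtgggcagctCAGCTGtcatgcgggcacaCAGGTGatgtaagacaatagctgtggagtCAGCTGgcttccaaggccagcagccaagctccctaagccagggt
Chrng chr1:87205561-87205810, plus strand: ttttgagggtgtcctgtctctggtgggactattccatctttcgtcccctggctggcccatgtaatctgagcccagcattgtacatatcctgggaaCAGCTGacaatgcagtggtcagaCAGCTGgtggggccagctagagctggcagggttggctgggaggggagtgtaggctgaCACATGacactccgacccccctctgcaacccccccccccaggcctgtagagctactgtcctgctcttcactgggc
Chrne chr11:70619195-70619444, minus strand: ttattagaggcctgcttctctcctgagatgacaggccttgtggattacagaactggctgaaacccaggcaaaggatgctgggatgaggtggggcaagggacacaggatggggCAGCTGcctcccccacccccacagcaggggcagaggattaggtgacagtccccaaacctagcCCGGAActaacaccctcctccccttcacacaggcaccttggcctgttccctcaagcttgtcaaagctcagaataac
Musk chr4:58285882-58285911, plus strand: gtgagttctcccCAGCTGgccacgtccatc

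Chrna1 has CAGCTG at -92 to -87 and at -44 to -39 from the start, and Chrng at -155 to -150 and at -132 to -127. Only 1.26% of 32851 windows of this length hold CAGCTG more than once. Chrne has a single CAGCTG at -138 to -133 and the N-box at -76 to -71, and Musk has CAGCTG at -68 to -63. In all, 4 of the 7 genes had at least 1 CAGCTG, which 13.0% of windows hold. All 7 had at least 1 CANNTG, a pattern that includes CAGCTG and that 66.2% of windows hold. Chrnb1 had 3 other E-boxes, Ache had 1, and Dok7 had 1 in its first window and none in its second. Most of the first Dok7 window and all of the second lie inside the annotated span of Dok7. CCGGAA or its reverse complement was found only in Chrne among the 7 and in 12.0% of all windows. E-boxes read the same pattern on both strands. A match describes the letters of the window and not binding, and Chrne, whose window holds CAGCTG, did not pass the test.

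**Figure D2:**
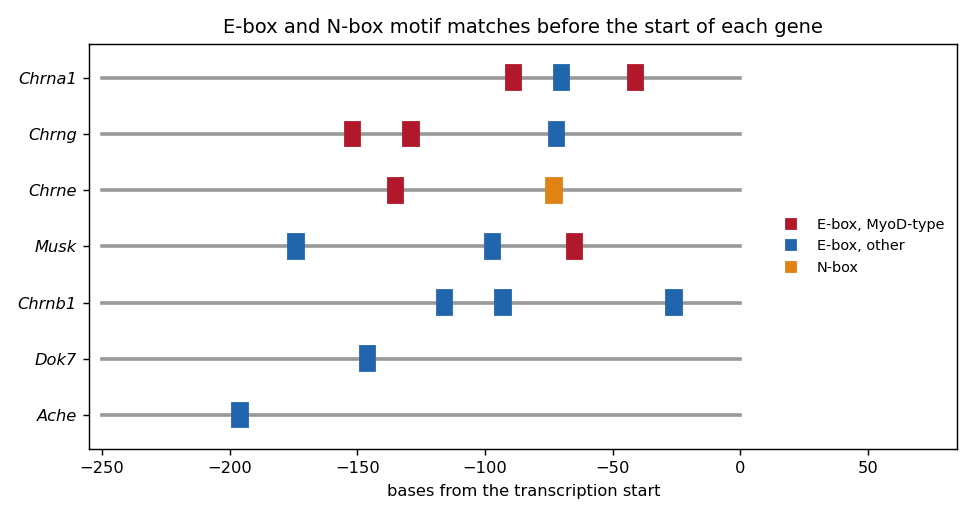
Motif matches in the 250 bases before an annotated transcript start of the 7 genes with a RefSeq window (horizontal axis, bases from that start). The windows of Musk and Dok7 lie mostly inside the annotated spans of these genes, and the first window of Dok7 is drawn. Red boxes are CAGCTG, blue boxes other CANNTG matches and the orange box CCGGAA; Chrna1 and Chrng each hold 2 red boxes.

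Chrna1, the acetylcholine-binding alpha subunit (Entrez Gene 11435, chromosome 2 from 73563281 to 73580338 on GRCm38), changed the most among the 10 genes. It had log2 signals of 9.54, 9.29, 8.94 and 9.12 in beating replicates 1 to 4, against 3.71, 3.45, 3.24 and 3.72 in non-beating replicates 1 to 4. All 4 beating values were far above all non-beating values, and the spread within each group was small beside the gap. The log2 fold change was 5.70 (95% interval 5.34 to 6.06, adjusted p = 8.18e-07), a 51.9-fold difference that ranked 26th among the 19938 genes by size of rise.

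Chrnd, the delta subunit (Entrez Gene 11447, chromosome 1 from 87190597 to 87200070), had log2 signals of 5.75, 5.61, 4.90 and 5.18 in beating samples and 3.24, 3.04, 3.05 and 2.49 in non-beating samples. The groups did not overlap, and all non-beating values but that of replicate 1 lay below the array medians. It was 5.30-fold higher (log2 fold change 2.41, standard error 0.22, adjusted p = 8.15e-04). Chrnb1, the beta subunit (Entrez Gene 11443, chromosome 11 from 69784036 to 69795966), had log2 signals of 5.03, 5.23, 4.90 and 5.13 in beating samples and 3.85, 3.45, 3.75 and 3.99 in non-beating samples. It changed less than the other called subunits, at 2.48-fold (log2 fold change 1.31, standard error 0.12, adjusted p = 9.25e-04), and its non-beating values were all above the array medians.

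The fetal subunit gene changed and the adult one did not pass the test. Chrng, the gamma subunit of the fetal receptor (Entrez Gene 11449, chromosome 1 from 87205811 to 87211835), had log2 signals of 6.45, 6.51, 5.95 and 6.35 in beating samples and 3.39, 3.40, 3.76 and 3.52 in non-beating samples. Its groups were clearly apart, and the beating signal was 6.96-fold higher (log2 fold change 2.80, 95% interval 2.47 to 3.12, adjusted p = 2.09e-05). Chrne, the epsilon subunit of the adult receptor (Entrez Gene 11448, chromosome 11 from 70614883 to 70619213), had log2 signals of 3.99, 3.42, 3.19 and 3.19 in beating samples and 2.98, 3.03, 2.88 and 3.04 in non-beating samples. All 4 non-beating values were below the array medians, and beating replicates 3 and 4 lay just above them. The log2 fold change of 0.47 had an unadjusted 95% interval of 0.071 to 0.87 and did not pass over all clusters (adjusted p = 0.168). Without beating replicate 1, the highest of the 4, it was 0.29. The span of Chrne holds that of another gene, 4930544D05Rik, and signal from the 2 could not be set apart here.

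The difference between the signals of the subunit genes was compared within arrays. The log2 signal of Chrng minus that of Chrne was 2.45, 3.10, 2.75 and 3.15 in beating replicates 1 to 4, against 0.41, 0.37, 0.88 and 0.49 in non-beating replicates 1 to 4. Every beating array was above every non-beating array, with means of 2.86 ± 0.33 and 0.54 ± 0.23 (SD, n = 4 each). The difference between these means was 2.33 (exact two-sided permutation test over 70 splits, p = 0.0286, the smallest the design allows). The lowest beating value of Chrng lay 2.19 above its highest non-beating value. Chrne varied by less than that over all these arrays (2.88 to 3.99). The groups therefore had to separate, and this p adds nothing to the call of Chrng. Chrne was not above background on any non-beating array and barely above the array medians on beating arrays 3 and 4, so its own change was not measured, and 2.33 compares deposited signals and not the transcript changes of the subunits. In the round pool the same quantity was 2.12.

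**Figure D3:**
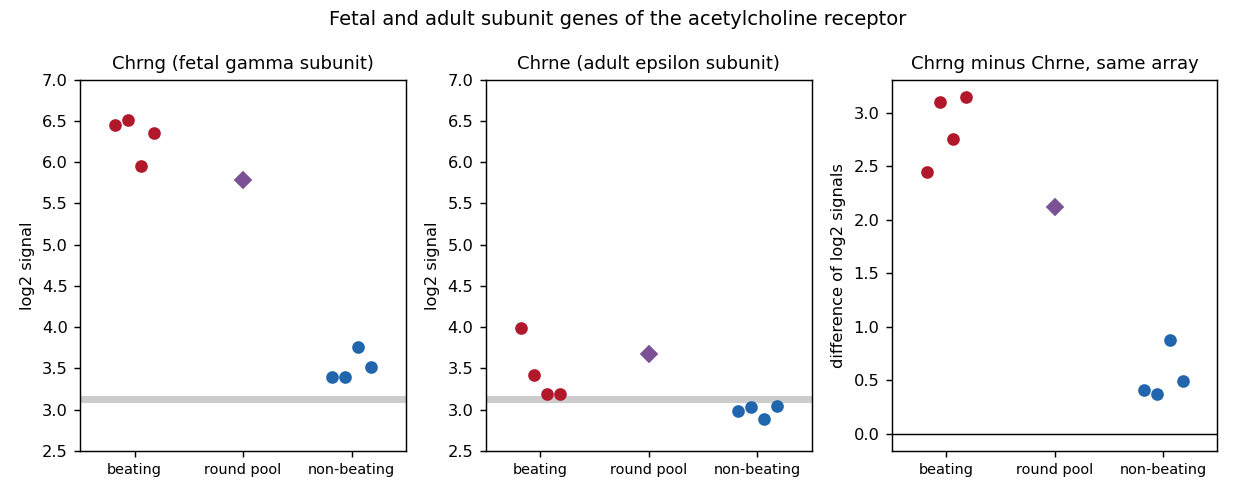
Log2 signal of Chrng (left) and Chrne (middle), and their difference on the same array (right), in beating samples (red, n = 4), the round pool (purple, 1 pool) and non-beating samples (blue, n = 4); the grey band is the range of array medians. Differences are 2.45 to 3.15 in beating samples, 2.12 in the round pool and 0.37 to 0.88 in non-beating samples.

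Of the genes that assemble the receptor at the membrane, the kinase and its co-receptor were higher. Musk, the muscle-specific kinase (Entrez Gene 18198, chromosome 4 from 58285729 to 58377848), had log2 signals of 7.65, 7.37, 7.61 and 7.53 in beating samples and 3.68, 3.50, 3.61 and 3.94 in non-beating samples. The 4 beating values lay close together and far above the non-beating ones. Musk was 14.5-fold higher (log2 fold change 3.86, 95% interval 3.61 to 4.10, adjusted p = 8.59e-07), rank 63 among the 19938 genes. Lrp4, the agrin receptor that works with MuSK (Entrez Gene 228357, chromosome 2 from 91457456 to 91513901), had log2 signals of 4.69, 5.09, 4.74 and 5.17 in beating samples and 4.12, 4.04, 4.11 and 3.98 in non-beating samples. The groups did not overlap, but the difference was modest, at 1.82-fold (log2 fold change 0.86, standard error 0.12, adjusted p = 0.00608). Lrp4 is expressed in many tissues, and its non-beating values stood above the array medians.

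Dok7 and Rapsn, the genes of this set that act with MuSK inside the cell, did not pass the test. Dok7, the adaptor that activates MuSK (Entrez Gene 231134, chromosome 5 from 35056571 to 35087839), had log2 signals of 3.44, 3.57, 3.49 and 3.30 in beating samples and 3.05, 3.25, 3.03 and 3.17 in non-beating samples. The groups did not overlap, yet both lay close to the array medians, and the log2 fold change was 0.32 (95% interval 0.14 to 0.51, adjusted p = 0.0573). It passed narrowly with dim clusters left out (adjusted p = 0.0444) and without beating replicate 4 (log2 fold change 0.37, adjusted p = 0.0432). Rapsn, which encodes the clustering protein rapsyn (Entrez Gene 19400, chromosome 2 from 91035472 to 91045729), had log2 signals of 2.90, 2.83, 2.80 and 2.89 in beating samples and 2.18, 2.83, 2.83 and 2.80 in non-beating samples. These values overlapped and all lay below the array medians, so the cluster was not measured above background in either group (log2 fold change 0.19, 95% interval -0.15 to 0.53, adjusted p = 0.523). Without non-beating replicate 1, the lowest of its group, the log2 fold change was 0.033.

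Ache, acetylcholinesterase (Entrez Gene 11423, chromosome 5 from 137288247 to 137294466), had log2 signals of 4.60, 3.18, 3.40 and 3.25 in beating samples and 2.65, 2.43, 2.88 and 2.75 in non-beating samples. All non-beating values were below the array medians, and beating replicate 1 stood above the 3 other beating values. The log2 fold change was 0.93 (95% interval 0.23 to 1.63) and did not pass (adjusted p = 0.125). Without beating replicate 1 it was 0.60, the other 3 beating values lay close together and the gene passed (adjusted p = 0.0332). Ache also passed after a prefilter that kept clusters with a value at least 1.5-fold from their median (adjusted p = 0.0453). That prefilter selects on change in the same arrays that are tested, so this pass is not separate support. The spans of Ache, Chrna1 and Rapsn overlap those of noncoding or unclassified genes, Gm42456 and Mir8116, Gm30940 and Gm13778, from which signal could not be set apart.

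**Figure D4:**
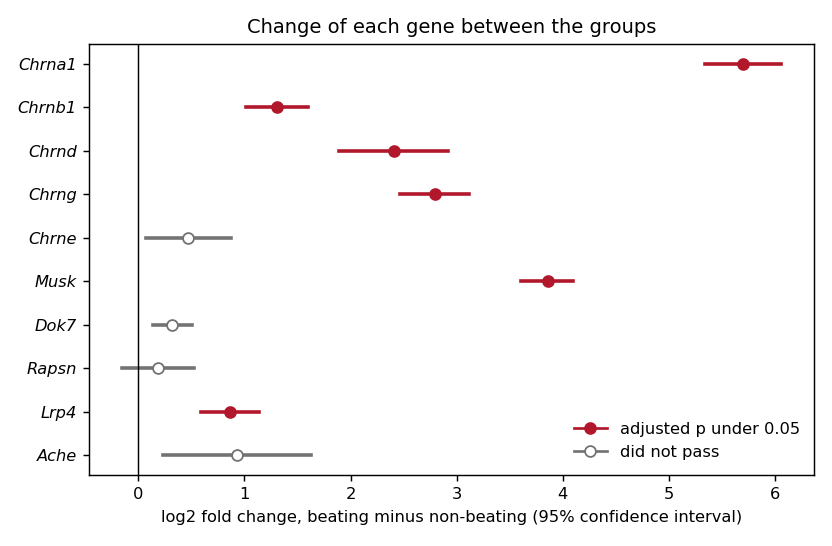
Log2 fold change of each gene, beating minus non-beating (horizontal axis), with its unadjusted 95% confidence interval from limma. Filled red points passed at an adjusted p under 0.05 over all clusters and open grey points did not; the intervals of Chrna1, Musk and Chrng do not overlap each other.

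In the round pool, taken on day 14, all 10 genes were above their 4 non-beating values. The same held for 54.3% of all clusters, and the round array had a median of 3.54, above that of every other array. Over 4 equal groups of clusters from dim to bright, the median difference from the non-beating mean was 0.32, 0.58, 0.19 and -1.29. Chrna1 was at 9.07 in the pool, within the beating range, and 5.54 above the non-beating mean. Its high beating values put it in the brightest group (median -1.29). Its non-beating mean of 3.53 lay in the range of the third group, 3.12 to 5.00 (median 0.19). Musk was at 6.14, below all 4 beating and above all 4 non-beating values, and 2.46 above the non-beating mean. Chrng at 5.79 and Chrnb1 at 4.54 likewise fell between the groups, a position that 0.924% of all clusters hold. Only the 5.98% of clusters whose beating values all exceed their non-beating values can hold it.

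Chrnd was at 5.11 in the pool and Lrp4 at 4.91, both within the beating range and 2.15 and 0.85 above the non-beating means. Both were in the third group (median 0.19), but the non-beating mean of Chrnd, 2.96, lay in the range of the second (median 0.58). Chrne at 3.68 and Ache at 3.61 were also within the beating range, and Dok7 at 3.76 and Rapsn at 3.03 exceeded all 8 other arrays, a position held by 46.4% of the clusters. For these 4 genes the round values were 0.70, 0.94, 0.63 and 0.37 above the non-beating means, and 0.24, 0.48, 0.18 and -0.085 from them after each array was centred on its median. The direction of Rapsn thus turned with the scaling. Differences from the beating mean also depended on it. Only Chrnb1 and Musk, at -0.53 and -1.40 from the beating mean as deposited, -0.93 and -1.80 after centring and -0.10 and -0.30 after quantile normalisation, kept their sign under all 3 scalings. Chrng was at -0.52 as deposited and at 0.53 after quantile normalisation. Its difference from Chrne in the pool, 2.12 as deposited, was 3.42 after quantile normalisation, so its place below the beating arrays turned as well. The pool has no replicate, and day, cell number and group cannot be told apart.

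**Figure D5:**
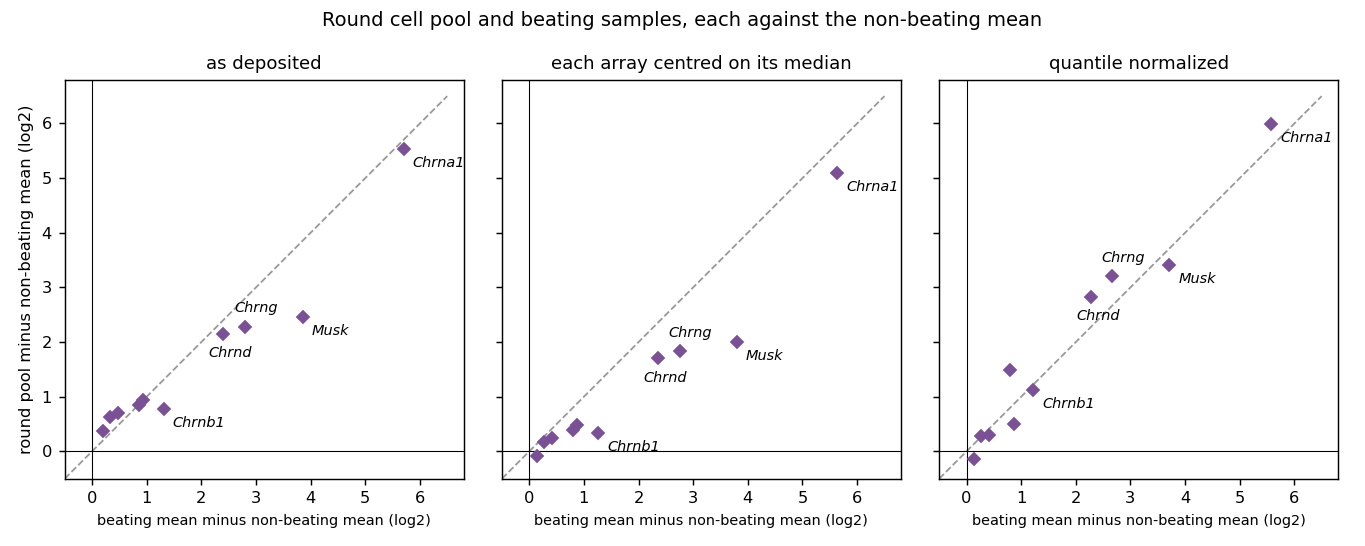
Round pool minus the non-beating mean (vertical axis, log2) against the beating mean minus the non-beating mean (horizontal axis, log2) for the 10 genes, under 3 scalings of the 9 arrays; the dashed line marks equality. Musk and Chrnb1 lie below the line in every panel, and Chrna1 moves from below it as deposited to above it after quantile normalisation.

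Genes around the pathway were described by list. Of 25 signalling partners of agrin and MuSK, 23 were measured by a cluster of a single symbol, of which 5 were higher, 1 was lower and 17 did not pass, with a median log2 fold change of 0.019. Over all genes of a single symbol, 2.84% were called higher and 4.11% lower. The largest changes were in Sorbs2, an adaptor (2.13), Macf1, which links microtubules to the synapse (1.45), and Cav3, the caveolin of muscle (1.26). Erbb3, a neuregulin receptor, followed (1.01, adjusted p = 0.0124). The lower gene was Rac1, a small GTPase (-0.36, adjusted p = 0.0165). The adjusted two-sample test called 3 higher and 1 lower, and Erbb3 was not among them (adjusted p = 0.0543). Agrn, the gene of agrin, did not pass, with a mean log2 signal of 3.89 ± 0.26 for the beating arrays and 4.05 ± 0.18 for the non-beating arrays (SD, n = 4 each, limma adjusted p = 0.599).

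Of 20 measured genes of the synaptic basal lamina and postsynaptic scaffold, 2 were higher, 1 was lower and 17 did not pass (median 0.045). Dtna, which encodes a dystrobrevin, rose by 2.19 on the log2 scale and Sntb1, a syntrophin, by 1.21, whereas Sntb2, another syntrophin, fell by 0.67 (adjusted p = 0.0493, and 0.128 with the two-sample test). Of 10 genes of receptor assembly and glycosylation none was higher, and Alg14 and Alg2, enzymes of N-glycosylation, were lower, with log2 fold changes of -0.57 and -0.55. The median of that list was -0.31, and the adjusted two-sample test called none of its genes.

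Acetylcholine receptors of other tissues were also on the array. None of the 11 neuronal nicotinic subunit genes and none of the 5 muscarinic receptor genes passed limma's test or the adjusted two-sample test, none had an unadjusted p under 0.05, and the medians of the lists were 0.042 and 0.015. Of the nicotinic genes 10 lay below the lowest array median on all 8 arrays. Among 14 presynaptic cholinergic and motor neuron genes only Nefm, a neurofilament gene, passed, and it was lower (log2 fold change -0.57, limma adjusted p = 0.0166, and 0.0540 with the two-sample test). Chat, the enzyme that makes acetylcholine, averaged 2.26 ± 0.18 on beating arrays and 2.38 ± 0.069 on non-beating arrays (SD, n = 4 each), below the array medians.

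Of 20 regulators known to act on receptor gene promoters, 3 were higher, 1 was lower and 16 did not pass (median -0.085). The 3 were myogenic factors of the MyoD family, whose known motif is the E-box; binding was not measured here. Myog rose by 3.83 on the log2 scale, Myf6 by 2.76 and Myod1 by 2.40, and Twist1, a mesenchymal factor that binds E-boxes too, fell by 0.74 (adjusted p = 0.0480). Gabpa, the Ets factor of the N-box, averaged 8.08 ± 0.38 on beating arrays and 8.72 ± 0.16 on non-beating arrays (SD, n = 4 each) and did not pass (limma adjusted p = 0.0893). The calls of Myf6 and Twist1 were lost with the adjusted two-sample test (adjusted p = 0.0507 and adjusted p = 0.127). Fetal and adult isoform genes of other muscle proteins were set beside Chrng and Chrne, with no test of that difference. All 4 measured fetal isoform genes, Myh3, Myh8, Myl4 and Actc1, were higher (log2 fold changes of 6.83, 5.93, 5.00 and 6.46). The study also counts Actc1 among the sarcomere genes of cardiomyocytes. Of 5 adult isoform genes 4 were higher, Myh1, Acta1, Myh4 and Myh2 (6.60, 5.57, 4.75 and 3.98). The other, Ckm, muscle creatine kinase, did not pass (log2 fold change 0.38, adjusted p = 0.109).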

How the data were processed

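RNA of 9 samples was amplified with the Ovation Pico system and read on Affymetrix Mouse Gene 1.0 ST arrays. Per the study's methods, BRB-ArrayTools was used by the authors for log2 scaling, normalisation and mean centring. The method behind the deposited log2 signals is not given in the sources used here; they are not centred per cluster and were used unchanged. Of 33323 clusters, 21789 carry 1 gene symbol in the platform annotation, and symbols were updated through the gene number to GRCm38. A gene with several clusters was represented by that with the highest mean over the 8 arrays.

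The main comparison, of beating with non-beating arrays, was fitted by lmFit and eBayes of limma 3.58.1 (R 4.3.3). The round pool was left out of the fit. Chrng minus Chrne was compared with an exact permutation test. Alternatives covered normalisation, filters, variance model, array weights, the two-sample test of the methods, a replicate block and leaving out each array. The members and lists were chosen with earlier results of these data known. Named genes were every member and, of each other list, up to 4 called genes with the largest change; where none passed, the gene with the highest mean could be named. Agrn, Chat, Gabpa, Ckm and Rac1 were named outside that rule, after their values were seen. Promoter windows are those of RefSeq, GRCm38.p6. The number of arrays limits the precision.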

Additional observations from a re-analysis of the deposited data

Results flagged for a closer look

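Of 22 groups of 4 arrays tested for a value far from the others (each gene and Chrng minus Chrne, in each group), 2 were marked, where chance marks about 1 in 20. Ache in beating replicate 1 had a log2 signal of 4.60, against 3.18 to 3.40 in the other 3 beating samples, a gap of 0.846 of the group's range. Rapsn in non-beating replicate 1 had a log2 signal of 2.18, against 2.80 to 2.83 in the other 3 non-beating samples, a gap of 0.962 of the range, with all 4 values below the array medians.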

How the results depend on the processing

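The 6 called genes passed under all 17 alternatives with an adjusted p, and the count of called genes lay between 5 and 7 over 18 alternatives, 5 at the unadjusted threshold of the study's methods, which Lrp4 missed. None of 168 gene values under an alternative turned its direction and 4 gained a call, those of Dok7 and Ache given above. Over all clusters, the adjusted two-sample test gave 491 higher and 375 lower. Without 1 array at a time the higher count lay between 569 and 914 and the lower between 438 and 1023, where higher calls numbered 569 or 575 when non-beating replicate 2 or 3 was left out, and lower calls 631 without beating replicate 2 and 547, 438, 473 and 690 without non-beating replicates 1 to 4. With replicate number as a block 645 were lower and the same count of 6 genes was called. Over all clusters, same-numbered samples did not deviate together (correlations of deviations between -0.012 and 0.0278), which cannot show that they came from different dishes. Whether equal numbers mark shared dishes is not stated, so numbers were not treated as pairs in the main fit. With paired sign flips the subunit difference stayed at 2.33 (exact p = 0.125, the smallest that 16 sign patterns allow), and without 1 array it lay between 2.23 and 2.47. The round values of Rapsn relative to the non-beating mean turned to -0.085 after median centring and -0.14 after quantile normalisation. Relative to the beating mean, round values turned after quantile normalisation to 0.41 for Chrna1, 0.55 for Chrnd, 0.53 for Chrng and 0.69 for Lrp4; to -0.17 and -0.11 (median centring, quantile) for Chrne, -0.22 and -0.28 for Rapsn and -0.39 and -0.37 for Ache; and to -0.084 after median centring for Dok7. Other clusters of a member could not be tried because each has 1, and Rapsn gave no value with dim clusters left out, nor Dok7 after the prefilter.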

Other observations

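The 4 beating arrays differed in how high the 10 genes stood. Beating replicate 1 was highest in 6 of them (Chrna1, Chrnd, Chrne, Musk, Rapsn and Ache) and beating replicate 3 lowest in 6 (Chrna1, Chrnb1, Chrnd, Chrng, Chrne and Rapsn), and Lrp4 was lowest in replicate 1. The mean of the 10 genes was 5.40, 5.21, 4.99 and 5.11 in beating replicates 1 to 4. The skeletal muscle marker list averaged 8.96, 8.50, 8.31 and 8.48 in the same arrays, the macrophage list 3.43, 4.24, 4.52 and 5.60 and the endothelial list 3.71, 4.81, 5.21 and 5.51. With 4 arrays no correlation was computed.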
